A study of Homo sapiens with 18 samples.

Results

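The interferon-stimulated genes described here are 45 named genes of the antiviral response, taken as a list of symbols and found on the array by gene name among 36204 gene names. They are covered by 60 probes on 78 spots of each array, and 14 of the 45 have more than 1 probe, in which case the brightest probe was used. The list holds RNA sensors, transcription factors, the *ISG15* conjugation system and the effector families IFIT, IFITM, OAS, Mx and GBP, with single genes such as *RSAD2* and *BST2*.

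Interferons are secreted proteins that bind receptors at the cell surface and activate the kinases *JAK1* and *TYK2*, which phosphorylate transcription factors such as *STAT2*. Type I interferons (IFNA, *IFNB1*) signal through *IFNAR1* and *IFNAR2*, and type III interferons (IFNL) through *IL10RB* and *IFNLR1*, the latter found mainly on epithelial cells. *STAT2* and *IRF9* act in a complex that binds the interferon-stimulated response element in promoters of the genes described here. Sensors of double-stranded RNA in the cytoplasm, *DDX58* (RIG-I) and *IFIH1* (MDA5), act upstream of interferon production and are themselves interferon-stimulated.

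Expression was profiled on 18 one-colour Agilent human arrays, with 6 groups of 3 arrays that the labels call biological replicates. The cell line HT29 comes from a human colorectal adenocarcinoma, and HTOXAR3 is a subline of it that became resistant to oxaliplatin (OXA), a platinum drug that damages DNA, through long exposure to rising doses. Either line was left untreated, exposed to OXA for 24 h, or exposed for 24 h to OXA together with Curcumin, a plant polyphenol. The OXA dose was 10 µM in HT29 and 30 µM in HTOXAR3, and the Curcumin dose was 10 µM in each line. A comparison of the lines after treatment therefore also compares OXA doses, and HTOXAR3 is a single resistant subline. Cells given Curcumin alone were not analysed here.

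Levels below are log2 of the background-corrected and quantile-normalized intensity of the gene's probe, and they are comparable between arrays for 1 gene but not between genes. A difference is the difference of group means of 3 arrays each on that log2 scale, with its standard error (SE) from limma. Limma estimated the spread of a gene once, over all 18 arrays and 6 groups. The SE and adjusted p therefore also reflect arrays outside the groups compared, and are not the spread of those groups alone. A gene was called where the Benjamini-Yekutieli (BY) adjusted p over all gene names was below 0.05 and the fold change exceeded 1.2. By the scanner's own flag, 52.4% to 63.6% of an array's spots were well above background. Of the 45 genes, 37 were well above background on every array, 7 on some arrays (*IFITM1* on 16, *IRF2* on 15, *IFI44L* on 12, *GBP1* on 6, *SAMD9L* and *XAF1* on 4 each and *EPSTI1* on 2) and *TRIM22* on 0. Of colonic epithelial markers, *EPCAM*, *CDH1*, *KRT8*, *KRT18*, *KRT20* and *VIL1* were well above background on all 18 arrays, *CDX2* on 10 and *CEACAM5* on 16. Mean *CDX2* levels untreated, with OXA and with OXA plus Curcumin were 7.10, 6.05 and 5.87 in HT29 and 4.93, 3.80 and 3.54 in HTOXAR3. Of markers of other cell types, *COL1A2* was above background on 0 arrays, *DCN* on 1 and *PECAM1* on 4, while *PTPRC*, *CD14* and *CDH5* were above it on 18, *CD3E* on 17 and *COL1A1* on 10. The flag alone therefore does not tell cell types apart, and the part of these markers in the results was not tested. A culture average cannot tell a few cells with much of an mRNA from many cells with little of it.

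The response element can be read in the promoters themselves. RefSeq promoter windows on GRCh38.p14, which run from 250 bases before to 50 bases after a transcription start, were at hand for 35 of the 45 genes. The motif GAAANNGAAA, searched on both strands and therefore also as TTTCNNTTTC, was found in 23 of these 35 genes (65.7%), against 4.38% of the 27305 genes with a window and 3.57% of all 35116 windows. The motif TTCNNNGAA, a second element of interferon-responsive promoters that reads the same on both strands, was found in 12 of the 35 (34.3%), against 9.38% of genes. The search allowed overlapping matches, which are counted separately. The stretches of 30 bases below, 5′ to 3′ on the strand of the gene, show, in the first listed window that held a match, the match nearest that transcription start, for members described further on, with matches in capitals. Capitals at an edge belong to a neighbouring match.
ISG15, chr1:1013377-1013406, plus strand: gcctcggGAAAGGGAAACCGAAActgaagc
HERC5, chr4:88457035-88457064, plus strand: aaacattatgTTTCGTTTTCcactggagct
IFIH1, chr2:162318686-162318715, minus strand: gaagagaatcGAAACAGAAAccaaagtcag
DDX60, chr4:168318786-168318815, minus strand: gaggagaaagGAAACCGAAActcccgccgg
MX1, chr21:41420559-41420588, plus strand: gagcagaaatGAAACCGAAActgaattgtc
IFIT1, chr10:89392510-89392539, plus strand: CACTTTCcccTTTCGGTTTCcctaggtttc
IFIT3, chr10:89327865-89327894, plus strand: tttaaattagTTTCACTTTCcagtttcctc
IFITM1, chr11:314024-314053, plus strand: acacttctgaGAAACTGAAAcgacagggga
IFITM3, chr11:320876-320905, minus strand: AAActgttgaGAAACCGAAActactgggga
OAS3, chr12:112938452-112938481, plus strand: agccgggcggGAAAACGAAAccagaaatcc
IFI44, chr1:78649761-78649790, plus strand: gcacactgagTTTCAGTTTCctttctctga
BST2, chr19:17405738-17405767, minus strand: tttctggGAAACTGAAACTGAAAacctaat
PARP9, chr3:122564322-122564351, minus strand: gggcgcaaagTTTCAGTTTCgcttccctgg
DTX3L, chr3:122564322-122564351, plus strand: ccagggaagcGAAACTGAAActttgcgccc

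In *ISG15*, a ubiquitin-like protein that is coupled to other proteins, a pair of matches overlapped, and the run began 113 bases before the start. *BST2* likewise held overlapping matches, beginning 130 bases before the start. *PARP9* and *DTX3L* are neighbours read in opposite directions, and the same match is shown for each, once from either strand. The genes with no match in any of their windows were *DDX58*, *STAT2*, *IRF1*, *IRF9*, *UBE2L6*, *HERC6*, *OAS1*, *CMPK2*, *SAMD9L*, *IFI35*, *XAF1* and *SP110*. The table held no window for *IRF2*, *IRF7*, *USP18*, *MX2*, *GBP2*, *IFIT2*, *IFITM2*, *OAS2*, *OASL* and *TRIM22*.

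**Figure D1:**
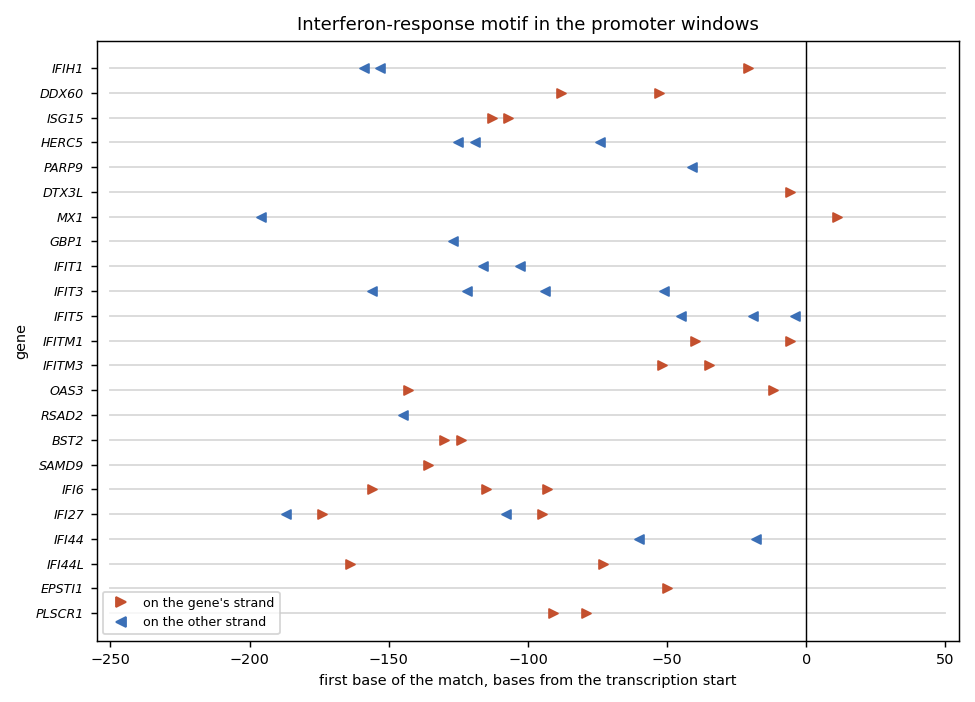
Place of each match to the motif in the promoter windows of the 23 genes that held it, with the distance of its first base from the transcription start in bases on the horizontal axis (0 is the start, negative values lie before it) and 1 gene per line. A gene with several starts has a window for each, so that the 48 matches lie at 43 places in the genome, 3 genes having overlapping windows and *PARP9* and *DTX3L* sharing a match. Arrowheads show the strand; 47 of the 48 begin before the start, the earliest at -196, and the 1 after it, at 11, is in *MX1*.

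The first comparison asks how the resistant subline differed from its parent without any drug. Interferon-stimulated genes were more often higher than lower in untreated HTOXAR3: 19 of the 45 were called higher and 4 lower, where 6.26% and 5.28% of all gene names were called in these directions (11.5% in all). The median difference of the 45 was 0.45 on the log2 scale, against -0.03 for all gene names, and it was 0.49 among the arrays of slide 2 and 0.38 among those of slide 3. Of the 23 calls, 16 were kept whichever single array of the 2 groups was left out and 14 under every alternative (*GBP2*, *IFI44*, *IFI6*, *IFIT1*, *IFIT3*, *IFIT5*, *IFITM2*, *IRF7*, *MX1*, *OAS3*, *OASL*, *SAMD9*, *SP110* and *USP18*).

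The IFIT genes, which bind viral RNA, were higher as a family, with 4 of 4 called. *IFIT1* stood at 10.86, 10.81 and 10.84 in untreated HT29 and at 11.99, 11.98 and 11.98 in untreated HTOXAR3. The 3 arrays of a line lay within a few hundredths of each other and the lines were more than 1 unit apart, a 2.21-fold difference (1.15 ± 0.18, SE, adjusted p = 0.00348). *IFIT3* was higher by 1.09 ± 0.15 (adjusted p = 0.0008), *IFIT2* by 1.01 ± 0.20 (adjusted p = 0.0246) and *IFIT5* by 0.81 ± 0.08 (adjusted p = 3.41e-05). The *IFIT2* call was lost when any 1 of the 6 arrays was left out, with differences of 0.96 to 1.06.

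The 3 IFITM genes, membrane proteins that hinder virus entry, did not move as a family. *IFITM1* was at 4.63, 5.0 and 4.81 in untreated HT29, where 2 of the 3 arrays were well above background, and at 6.97, 6.59 and 6.66 in HTOXAR3. This was the largest difference among the 45, 3.8-fold (1.93 ± 0.35, adjusted p = 0.0104), and it was no longer called without replicate 1 of HT29 or without replicate 1 of HTOXAR3 (1.84 and 1.81). *IFITM2*, its neighbour in the genome, went the other way, at 10.61, 10.59 and 10.77 in HT29 and 9.67, 9.84 and 9.76 in HTOXAR3, so that the groups did not overlap (-0.90 ± 0.14, adjusted p = 0.00239). *IFITM3* differed by 0.13 ± 0.15 and was not called. These paralogs are similar in sequence, and their 60-base probes were compared without gaps: the *IFITM2* and *IFITM3* probes shared 34 of 60 bases at best, and the *IFITM1* probes shared at most 22 with either. The *IFITM1* probe lies at chr11:315209-315268 on GRCh37, that of *IFITM2* at chr11:309109-309168 and that of *IFITM3* at chr11:319855-319914. A second *IFITM1* probe gave a basal difference of 1.10, not called.

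Of the OAS genes, enzymes of the antiviral response that make oligoadenylates, 3 of 4 were higher: *OASL* by 0.90 ± 0.14 (adjusted p = 0.00357), *OAS2* by 0.85 ± 0.14 (adjusted p = 0.004) and *OAS3* by 0.55 ± 0.09 (adjusted p = 0.00618). *OASL* itself lacks that enzymatic activity. *OAS1* differed by 0.09 ± 0.07 and was not called. *OAS2* has 3 probes that disagreed, with basal differences from 0.06 to 0.93, and the mean over them was 0.40 and not called.

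*RSAD2* (viperin), an enzyme that makes a chain-terminating nucleotide, and its genomic neighbour *CMPK2* were both higher, by 1.13 ± 0.14 (adjusted p = 0.000435) and 0.73 ± 0.14 (adjusted p = 0.0183). *RSAD2* was at 5.22, 5.33 and 5.65 in HT29 and 6.53, 6.57 and 6.51 in HTOXAR3. All 3 HTOXAR3 arrays were above the highest HT29 array. Averaged with its other probe, which was above background on 0 arrays, the *RSAD2* difference was 0.56 and not called. The *CMPK2* call was lost with the mean of its probes (0.32), with slide as a block (0.72, adjusted p = 0.0602) and without replicate 1 or 3 of either line (0.69 to 0.72). *IFI6*, a mitochondrial protein that protects against cell death, was higher by 1.08 ± 0.11 (adjusted p = 6.84e-05) and *IFI44* by 1.08 ± 0.11 (adjusted p = 6.89e-05). *IFI44L*, at 1.07 ± 0.27, was not called, and 1 of its 3 HT29 arrays was above background.

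Both guanylate-binding proteins were higher. *GBP2* was higher by 0.74 ± 0.09 (adjusted p = 0.000504). *GBP1* was not well above background on any untreated HT29 array and on 1 of 3 untreated HTOXAR3 arrays, and its difference is given as at least 1.39-fold (adjusted p = 0.00817). That call was lost with a normexp offset of 50 (adjusted p = 0.073) and without replicate 1 or 3 of HT29 or replicate 1 of HTOXAR3 (adjusted p = 0.0506 to 0.0545). The RNA sensors were not called, with differences of 0.27 for *DDX58*, 0.35 for *IFIH1* and 0.66 for *DDX60*. The other members higher in HTOXAR3 were *SAMD9* (0.65), *USP18* (0.58), *MX1* (0.52), *IRF9* (0.50) and *ISG15* (0.30). The *ISG15* call was lost with processed signals (0.26, adjusted p = 0.0605) and without replicate 1 of HT29 or replicate 1 or 2 of HTOXAR3 (0.29 to 0.30).

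The 4 members called lower in HTOXAR3 were *IFITM2*, *IRF7*, *SP110* (-0.43) and *PARP9* (-0.34). The *PARP9* direction depends on the probe, since its second probe gave 0.32, and its call was lost with the mean of both (-0.01), with slide as a block (adjusted p = 0.0657) and without replicate 1 or 2 of either line (-0.33 to -0.32). *IRF7*, the factor that amplifies type I interferon transcription, was at 13.49, 13.48 and 13.39 in HT29 and 12.77, 12.80 and 12.81 in HTOXAR3, and fell by 0.66 ± 0.07 (adjusted p = 6.2e-05). Of the other factors, *IRF9* was higher (0.50 ± 0.11, adjusted p = 0.0471) by the probe used, while a second probe, above background on all 18 arrays, differed by 0.02. The mean of both was 0.26 and not called, and the *IRF9* call was also lost without any of 5 of the 6 arrays (0.44 to 0.54), replicate 3 of HT29 being the exception. *STAT2* was at -0.24 ± 0.06 and not called. *IRF1* (0.03 ± 0.07) and *IRF2* (-0.20 ± 0.14) were not called.

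**Figure D2:**
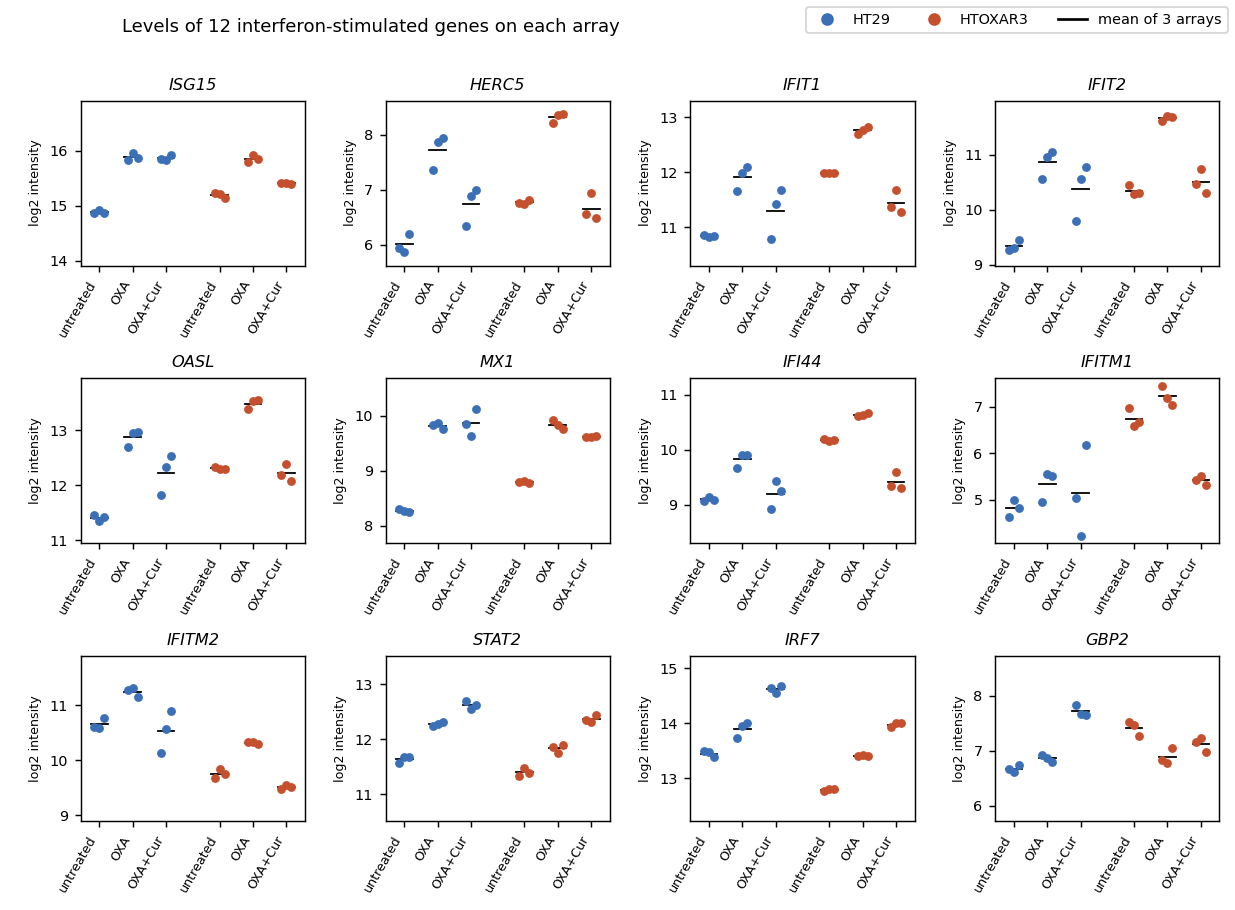
Levels of 12 interferon-stimulated genes on each of the 18 arrays, as log2 intensity on the vertical axis, by treatment along the horizontal axis, with HT29 in blue and HTOXAR3 in red. Points are arrays and bars are means of 3 arrays; each panel has its own vertical axis, and levels of different panels are not comparable. Without drug, *IFIT1*, *OASL* and *IFI44* stand higher in HTOXAR3 than in HT29; they sit higher still on the OXA arrays and are lower again on the OXA plus Curcumin arrays of HTOXAR3, while *STAT2* and *IRF7* are highest with OXA plus Curcumin in each line.

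The second comparison asks what OXA did in each line. In HT29, 22 of the 45 genes rose and 1 fell after OXA, where 8.33% and 7.62% of all gene names were called in these directions (15.9% in all), and the median difference was 0.55 against -0.01 for all names (0.60 on slide 2 and 0.54 on slide 3). In HTOXAR3, at its higher dose, 13 rose and 2 fell, where 5.31% and 4.94% of names were called (10.2% in all), with a median of 0.46 against 0.01 (0.45 on each slide). The HTOXAR3 count was 24 (21 higher and 3 lower) with a normexp offset of 50 or without dim probes. In these settings 4442 and 4632 names were called, against 3709 in the main fit. With Benjamini-Hochberg adjustment the count was 27 (22 higher and 5 lower), where 16.6% of names were called. The comparisons in HT29 and HTOXAR3 share no arrays with each other, and each shares its untreated arrays with the comparison of the untreated lines. In HT29, 18 of the 23 calls were kept under every alternative, and in HTOXAR3 12 of the 15. Each of the 13 genes that rose in HTOXAR3 also rose in HT29, which is 100% of the HTOXAR3 list and 59.1% of the HT29 list. Overlaps between lists of called members, here and below, were not counted over all gene names. The calls in both lists also rest on the same estimate of spread for each gene.

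*HERC5*, the main ligase that couples *ISG15* to proteins, had the largest rise in either line. It was at 5.94, 5.87 and 6.20 in untreated HT29 and 7.35, 7.87 and 7.94 after OXA. In HTOXAR3 it was at 6.76, 6.73 and 6.81 untreated and 8.22, 8.35 and 8.37 after OXA. No OXA array overlapped the untreated arrays of its line, and the rise was 3.28-fold in HT29 (1.72 ± 0.18, adjusted p = 7.18e-05) and 2.93-fold in HTOXAR3 (1.55 ± 0.18, adjusted p = 0.000393). *ISG15* itself was at 14.87, 14.92 and 14.87 in untreated HT29 and 15.82, 15.95 and 15.87 after OXA. Its rise was 0.99 ± 0.05 in HT29 (adjusted p = 1.29e-07) and 0.66 ± 0.05 in HTOXAR3 (adjusted p = 1.67e-05). *USP18*, the protease that removes *ISG15*, rose in HT29 (0.55) and was at 0.36 and not called in HTOXAR3. *UBE2L6*, the conjugating enzyme of the pathway, and *HERC6* were not called in either line, with differences of 0.42 to 0.55.

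All 3 RNA sensors were called higher in HT29, *DDX58* by 0.91 ± 0.11 (adjusted p = 0.000152), *IFIH1* by 0.79 ± 0.08 (adjusted p = 3.74e-05) and *DDX60*, a helicase that assists *DDX58*, by 0.84 ± 0.16 (adjusted p = 0.0141). The *DDX60* call was lost without replicate 1 or 2 of the untreated group or 2 or 3 of OXA (0.75 to 0.79). In HTOXAR3 *DDX58* rose by 1.0 ± 0.11 (adjusted p = 0.000141) and *IFIH1* by 0.75 ± 0.08 (adjusted p = 0.000141), and *DDX60* was at 0.72 ± 0.16 and not called. *DDX58* has a second probe, which was also called in each line (1.04 and 1.10).

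Of the transcription factors, *STAT2* rose by 0.63 ± 0.06 in HT29 and 0.43 ± 0.06 in HTOXAR3 (adjusted p = 4.71e-05 and 0.00259). *IRF1*, which drives interferon genes and their targets, rose by 0.77 ± 0.07 and 0.47 ± 0.07 (adjusted p = 1.76e-05 and 0.00315), and *IRF7* by 0.44 ± 0.07 and 0.62 ± 0.07 (adjusted p = 0.00195 and 0.00021). *IRF9* rose in HT29 (0.92 ± 0.11, adjusted p = 0.000206) and was at 0.46 ± 0.11 and not called in HTOXAR3. *IRF2*, a repressor of *IRF1* targets, was not called in any comparison.

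Among the effectors, *MX1*, a GTPase that traps viral nucleocapsids, was at 8.30, 8.28 and 8.25 in untreated HT29 and 9.84, 9.87 and 9.76 after OXA, a 2.92-fold rise (1.55 ± 0.09, adjusted p = 2.29e-07). In HTOXAR3 it was at 8.80, 8.81 and 8.78 and 9.93, 9.83 and 9.77, a 2.06-fold rise (1.05 ± 0.09, adjusted p = 2.79e-05). After OXA the lines differed by 0.02, not called, and without drug HTOXAR3 stood above HT29. *IFIT2* rose by 1.53 ± 0.20 in HT29 and 1.33 ± 0.20 in HTOXAR3 (adjusted p = 0.000546 and 0.00343), and its second probe gave 1.58 and 1.31. *OASL* was at 11.45, 11.34 and 11.41 in untreated HT29 and 12.69, 12.94 and 12.97 after OXA, and in HTOXAR3 at 12.33, 12.29 and 12.29 and 13.38, 13.52 and 13.54. It rose by 1.47 ± 0.14 and 1.18 ± 0.14 (adjusted p = 3.13e-05 and 0.000508), with groups that did not overlap in either line. *IFIT3* rose by 1.19 ± 0.15 and 0.87 ± 0.15 (adjusted p = 0.000264 and 0.00674). *IFIT1* rose in HT29 (1.07 ± 0.18, adjusted p = 0.0046) and was at 0.77 ± 0.18 and not called in HTOXAR3. *OAS3* rose in each line (0.74 and 0.61). *GBP1* was called higher in each line; in HT29 it was not well above background in either group, and no fold is given. Its HT29 call was lost with a normexp offset of 50 and without any of 3 arrays (replicates 1 and 3 untreated and 1 of OXA; adjusted p = 0.0672 to 0.121), and its HTOXAR3 call with processed signals and without any array but replicate 3 of OXA (adjusted p = 0.0597 to 0.109).

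The genes that were called higher after OXA in HT29 and not called in HTOXAR3 were *IFIT1*, *IFITM3*, *OAS2*, *USP18*, *SAMD9*, *IRF9*, *RSAD2*, *DDX60* and *IFI44*. Their differences in HTOXAR3 ranged from 0.25 (*SAMD9*) to 0.77 (*IFIT1*), and none of the 9 had a called difference between the lines in the response. The HT29 call of *RSAD2* was lost in 7 of 13 alternatives, among them the replicate block (0.62, adjusted p = 0.0518), an offset of 50 (0.32), the mean of its probes (0.24) and without replicate 1 or 2 of the untreated group or 2 or 3 of OXA (0.53 to 0.59). That of *OAS2* was lost with the mean of its probes (0.34) and without replicate 3 of OXA (0.66). The genes that fell were *BST2* (tetherin, which holds budding virions at the membrane) in HT29 (-0.27 ± 0.06) and *GBP2* and *IFI35* in HTOXAR3 (-0.53 ± 0.09 and -0.53 ± 0.11). In HTOXAR3 *BST2* was at -0.28 ± 0.06 and not called. None of these 3 falls was kept in all fits with an array left out. *BST2* was lost without replicate 1 or 3 of the untreated group or 1 or 2 of OXA (-0.27 to -0.23), *GBP2* without replicate 1 or 2 of either group (-0.51 to -0.48) and *IFI35* without any 1 of the 6 arrays (-0.60 to -0.43). Tested directly, the difference between the lines in the response to OXA was called for 0 of the 45 genes by limma, where 1.01% of names were called (0.608% higher and 0.398% lower). Of the 45, 8 (17.8%) had an unadjusted p below 0.05, against 13.7% of names, and 2 were called with Benjamini-Hochberg adjustment, against 3.0% of names, so that both counts were near the background. The median of that difference was -0.17, against 0.01 for all names.

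**Figure D3:**
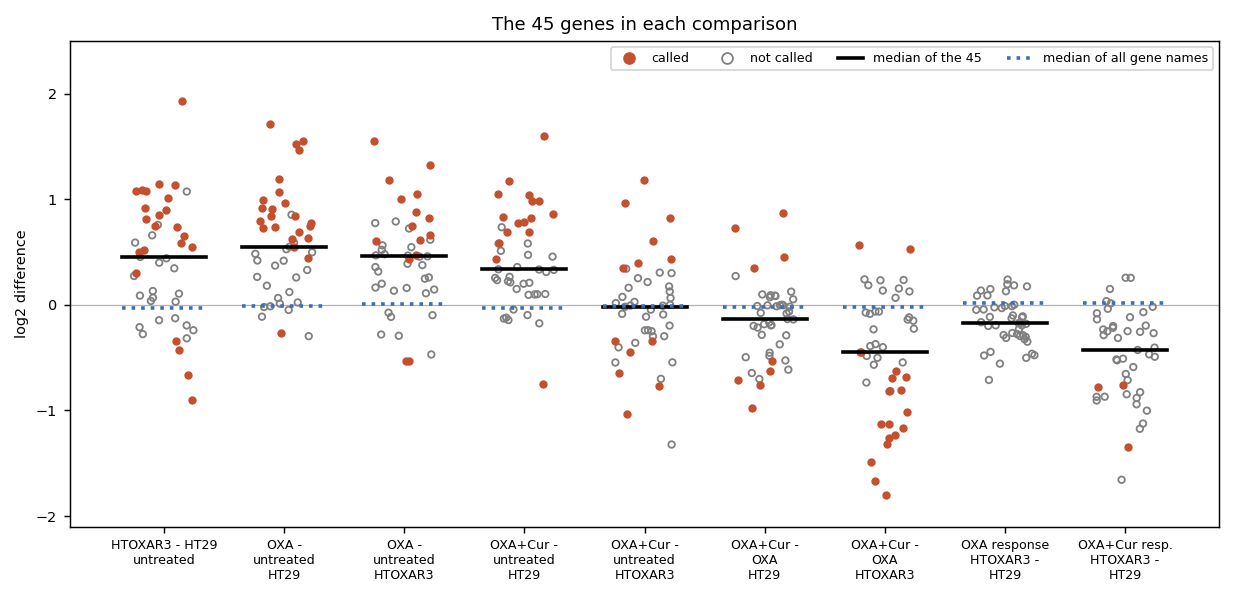
Log2 differences of the 45 genes in 9 comparisons, 1 point per gene, filled where limma with BY adjustment called it. Black bars are medians of the 45 (0.45 for the untreated lines, 0.55 and 0.46 after OXA, 0.34 and -0.02 after OXA plus Curcumin, -0.14 and -0.45 for Curcumin added to OXA, -0.17 and -0.43 for the differences between the lines in response) and dotted bars are medians of all gene names, which lie between -0.03 and 0.02.

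The third comparison sets OXA plus Curcumin against OXA alone, and shares the OXA arrays with the comparison above, so that each difference is given by its own values. In HT29, 4 of the 45 genes were higher and 5 lower with Curcumin, where 3.14% and 2.39% of names were called (5.53% in all), with a median of -0.14 against -0.02 (-0.23 on slide 2 and -0.07 on slide 3). In HTOXAR3, 2 were higher and 17 lower, where 4.43% and 4.41% of names were called (8.83% in all), with a median of -0.45 against -0.02 (-0.51 and -0.48). With Benjamini-Hochberg adjustment the HT29 calls were 4 higher and 10 lower (10.2% of names called in all). Leaving out single arrays took the HT29 count of 9 to between 3 and 9. It was 4 and 5 without replicates 1 and 2 of OXA plus Curcumin, and 5, 3 and 3 without replicates 1, 2 and 3 of OXA. The 5 genes lower in HT29 were among the 17 lower in HTOXAR3 (100% and 29.4% of the lists). The genes higher in HTOXAR3, *STAT2* and *IRF7*, were both higher in HT29.

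In HTOXAR3, *IFIT1* was at 12.69, 12.76 and 12.82 with OXA and 11.36, 11.68 and 11.27 with OXA plus Curcumin. The highest array with Curcumin was about 1 unit below the lowest array without, and below the untreated arrays, and the fall was to 0.401 of the OXA level (-1.32 ± 0.18, adjusted p = 0.00171). Against untreated HTOXAR3 the *IFIT1* difference was not called. *HERC5* went from 8.22, 8.35 and 8.37 to 6.55, 6.93 and 6.48, to 0.316 of its level (-1.66 ± 0.18, adjusted p = 0.000288). *OASL* went from 13.38, 13.52 and 13.54 to 12.19, 12.39 and 12.07 (-1.26 ± 0.14, adjusted p = 0.000364). In each of these genes the groups stood apart. *IFI44* was at 10.61, 10.63 and 10.67 and then 9.33, 9.59 and 9.30, a fall by 1.23 ± 0.11 (adjusted p = 5.69e-05). *IFITM1* went from 7.45, 7.18 and 7.03 to 5.43, 5.50 and 5.32 (-1.80 ± 0.35, adjusted p = 0.0235), and its second probe differed by -1.55 and was not called. *IFI44L* fell by 1.49 ± 0.27 (adjusted p = 0.0134), and 1 of its 3 arrays with Curcumin was above background. The *IFITM1* call was lost without any 1 of the 6 arrays (-1.90 to -1.69), and that of *IFI44L* without any of 4 of them (-1.51 to -1.35), which were replicates 1 and 3 with Curcumin and 1 and 2 without.

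The sensors were also lower with Curcumin in HTOXAR3: *DDX60* (-1.13 ± 0.16, adjusted p = 0.00261), *DDX58* (-0.69 ± 0.11, adjusted p = 0.00378) and *IFIH1* (-0.68 ± 0.08, adjusted p = 0.000415). The others lower were *IFIT2* (-1.17), *IFIT3* (-1.12), *OAS2* (-1.01), *IFITM3* (-0.81), *IFITM2* (-0.80), *OAS3* (-0.63), *ISG15* (-0.45) and *USP18* (-0.45). Of the 19 calls in HTOXAR3, 13 were kept whichever array of the 2 groups was left out. Besides *IFITM1* and *IFI44L*, calls were lost for *IFIT2* (without replicates 1 or 3 with Curcumin or 2 or 3 without, -1.16 to -1.07), *IFITM3* (any array but replicate 2 with Curcumin, -0.83 to -0.78), *USP18* (any array but replicate 1 without Curcumin, -0.47 to -0.39) and *IFITM2* (without replicate 1 with Curcumin, -0.78), and with the mean of its probes for *OAS3* (-0.49, adjusted p = 0.0556).

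In HT29 the genes lower with Curcumin were *HERC5* (-0.98 ± 0.18, adjusted p = 0.0274), *IFITM3* (-0.76 ± 0.15, adjusted p = 0.0359), *IFITM2* (-0.71 ± 0.14, adjusted p = 0.0342), *IFI44* (-0.63 ± 0.11, adjusted p = 0.0198) and *OAS3* (-0.54). *HERC5* was at 7.35, 7.87 and 7.94 with OXA and 6.34, 6.88 and 7.0 with Curcumin, without overlap, though replicate 1 with Curcumin was well below the others. The calls of *HERC5* and of *IFI44* were lost without any of 4 arrays (-1.05 to -0.78 and -0.65 to -0.49), that of *IFITM3* without any of 4 (-0.77 to -0.74) and that of *IFITM2* without any of 5 (-0.76 to -0.51). With slide as a block *IFITM3* (-0.75, adjusted p = 0.113) and *IFITM2* (-0.70, adjusted p = 0.0975) lost their calls too, and with the replicate block so did *IFITM3* (-0.76, adjusted p = 0.0648). That of *OAS3* was lost with the mean of its probes (-0.46, adjusted p = 0.113) and without replicate 1 or 2 with Curcumin or any replicate of OXA (-0.55 to -0.49). None of the 5 genes lower in HT29 thus kept its call in all fits with an array left out, while *GBP2*, *IRF7* and *OAS1*, which were higher, did. The HT29 count with slide as a block was 3 higher and 3 lower. *IFIT1* was at 10.78, 11.42 and 11.68 with OXA plus Curcumin, a range that met the OXA arrays, and its difference from OXA was -0.61 ± 0.18 and not called.

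Of the 5 transcription factors, *IRF7* and *STAT2* were called higher with Curcumin in each line. *IRF7* was at 13.74, 13.95 and 14.01 with OXA and 14.65, 14.55 and 14.68 with OXA plus Curcumin in HT29 (0.73 ± 0.07, adjusted p = 0.000108). In HTOXAR3 it was at 13.40, 13.43 and 13.40 and 13.93, 14.01 and 14.00 (0.57 ± 0.07, adjusted p = 0.000542). Every array with Curcumin was above every array with OXA alone in its line. *STAT2* was likewise higher by 0.35 ± 0.06 in HT29 and 0.53 ± 0.06 in HTOXAR3 (adjusted p = 0.023 and 0.000647). In HT29 the *STAT2* call was lost with slide as a block (0.33, adjusted p = 0.0838) and without any of 5 arrays (0.32 to 0.37), which were replicates 1 and 3 with Curcumin and each replicate of OXA. The other factors were not called, with differences in HT29 and HTOXAR3 of 0.08 and 0.14 for *IRF1*, -0.02 and -0.06 for *IRF2*, and -0.14 and -0.50 for *IRF9*. The other genes higher with Curcumin in HT29 were *GBP2* and *OAS1*. *GBP2* was at 6.92, 6.87 and 6.80 with OXA and 7.84, 7.68 and 7.66 with Curcumin, a 1.82-fold rise (0.87 ± 0.09, adjusted p = 0.000413). *OAS1* was higher by 0.46 ± 0.07 (adjusted p = 0.00407).

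The difference between the lines in the effect of adding Curcumin, a comparison added after the values had been seen, was called for 0 of the 45 genes by limma, where 0.135% of names were called (0.0276% higher and 0.108% lower). Of the 45, 19 (42.2%) had an unadjusted p below 0.05, against 9.74% of names, and 2 were called with Benjamini-Hochberg adjustment, against 0.892% of names. The median was -0.22 against 0.01 for all names, and 7 of the 45 differences were above 0. The larger number of calls in HTOXAR3 is therefore not shown to be a difference between the lines for any single member.

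Against untreated cells, OXA plus Curcumin left 15 genes higher and 1 lower in HT29, where 9.56% and 9.02% of names were called (18.6% in all), with a median of 0.34 against -0.03 (0.29 on slide 2 and 0.42 on slide 3). In HTOXAR3, 7 were higher and 6 lower, where 8.82% and 8.64% of names were called (17.5% in all), with a median of -0.02 against -0.01 (-0.08 and -0.06). In HTOXAR3 the members thus split, and the share called, 28.9%, held nearly equal numbers in each direction. The untreated arrays are shared with the comparisons of OXA alone.

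In HT29 the largest differences were those of *MX1* (1.60 ± 0.09, adjusted p = 1.6e-07), *IRF7* (1.17 ± 0.07, adjusted p = 1.77e-07), *GBP2* (1.05 ± 0.09, adjusted p = 1.17e-05), *IFIT2* (1.04 ± 0.20, adjusted p = 0.0122), *STAT2* (0.98 ± 0.06, adjusted p = 5.27e-07) and *ISG15* (0.98 ± 0.05, adjusted p = 1.28e-07). The *IFIT2* call was lost without replicate 1 or 2 of the untreated group or replicate 2 or 3 of OXA plus Curcumin (0.84 to 1.03). *CMPK2*, a mitochondrial nucleotide kinase beside *RSAD2*, was lower, at 8.04, 8.24 and 8.09 untreated and 7.03, 7.27 and 7.80 with OXA plus Curcumin (-0.75 ± 0.14, adjusted p = 0.01). This was -0.52 and not called with the mean of its probes, and was lost without replicate 2 of either group (-0.70 and -0.69). In HTOXAR3 *IRF7* (1.18 ± 0.07), *STAT2* (0.96 ± 0.06) and *MX1* (0.82 ± 0.09) were again higher (adjusted p = 2.15e-07, 8.27e-07 and 0.0001). *IRF1* (0.61), *SAMD9* (0.43), *OAS1* (0.40) and *PARP9* (0.35) were higher too. The *SAMD9* call was lost in 7 of 13 alternatives, in the fit to means over all probes of each gene (*SAMD9* itself has 1 probe; adjusted p = 0.053), with slide as a block (0.39, adjusted p = 0.0574) and without any array but replicate 1 with OXA plus Curcumin (0.36 to 0.46), and the *PARP9* call without replicate 1 or 2 of the untreated group or 2 with OXA plus Curcumin (0.30 to 0.34). *CMPK2* was at 8.92, 8.75 and 8.89 untreated and 7.78, 7.89 and 7.78 with OXA plus Curcumin, a fall by 1.04 ± 0.14 (adjusted p = 0.000657) that was -0.14 and not called when averaged with a second probe above background on 1 array. *IFI44* (-0.77 ± 0.11, adjusted p = 0.00107) and *IFI35* (-0.65 ± 0.11, adjusted p = 0.00558) were lower than in untreated HTOXAR3, as were *DTX3L* (-0.44), *BST2* (-0.35) and *SP110* (-0.35). The *SP110* call was lost without replicate 1 or 3 of either group (-0.35 to -0.28), and that of *DTX3L* without replicate 1 or 3 of the untreated group or 3 with OXA plus Curcumin (-0.43 to -0.39).

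The response to OXA plus Curcumin differed between the lines for 3 of the 45 genes, all lower in HTOXAR3, where 0.856% of names were called (0.32% higher and 0.536% lower). The count was 7, all lower, with a normexp offset of 50 or without dim probes, where 655 and 603 names were called, against 310 in the main fit. With Benjamini-Hochberg adjustment it was 11, all lower, where 3.44% of names were called. *GBP2* was higher by 1.05 in HT29 and at -0.30 and not called in HTOXAR3, where it was 7.52, 7.47 and 7.27 untreated and 7.17, 7.23 and 6.98 with OXA plus Curcumin, and the difference between the responses was -1.35 ± 0.13 (adjusted p = 0.00127). *ISG15* was higher by 0.98 in HT29 and at 0.22 and not called in HTOXAR3, with a difference of -0.76 ± 0.08 (adjusted p = 0.0015). *MX1* was higher in each line, by less in HTOXAR3, with a difference of -0.78 ± 0.13 (adjusted p = 0.0483). The *MX1* call lay next to the threshold and was lost when any of 10 of the 12 arrays was left out (-0.79 to -0.77), with slide or the replicate number as a block, and in the fit to means over all probes of each gene, 13 of 19 settings in all. The median of the 45 differences was -0.43, against 0.02 for all names, 5 of the 45 were above 0, and 27 had an unadjusted p below 0.05, against 14.4% of names. The count was 7 without replicate 1 of HT29 with OXA plus Curcumin.

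**Figure D4:**
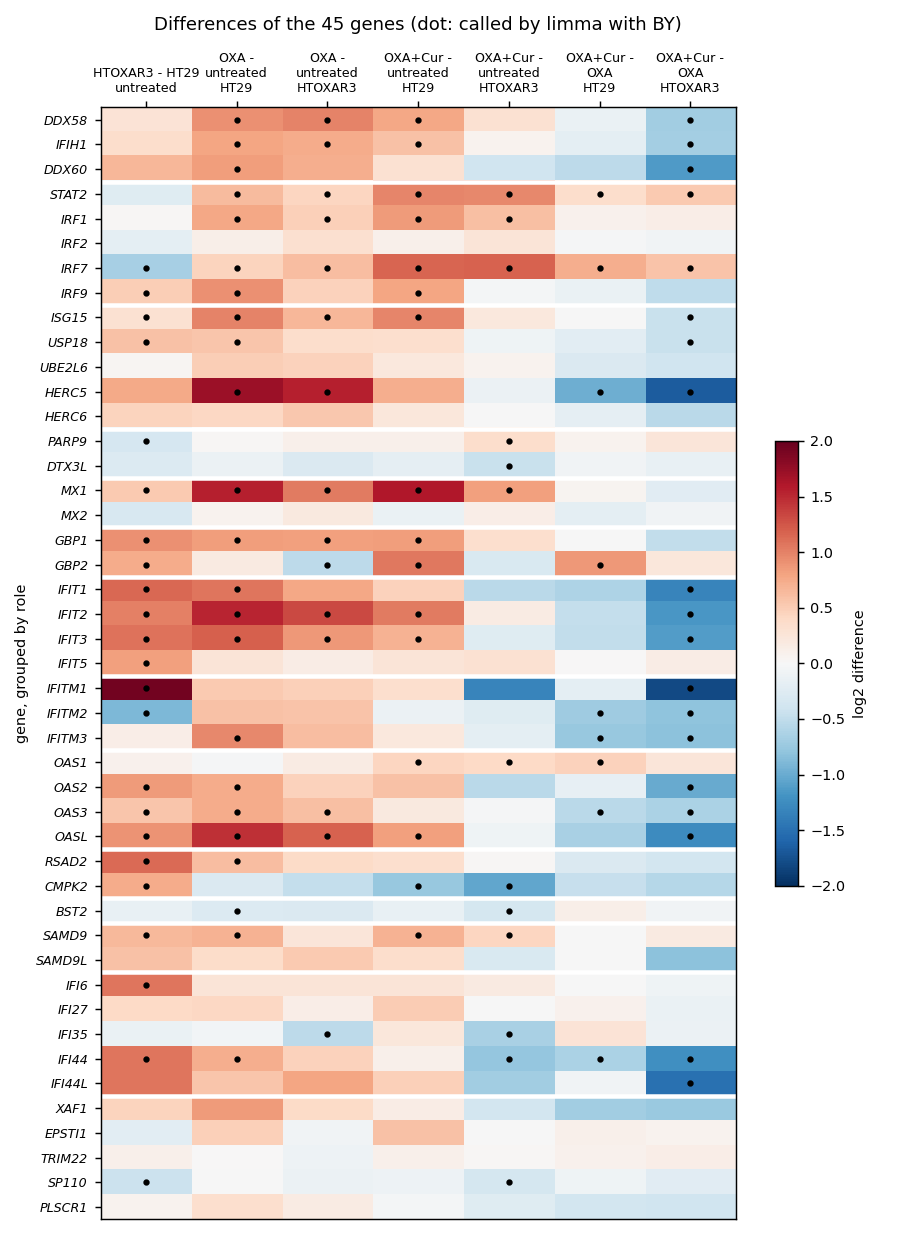
Log2 differences of all 45 genes in 7 comparisons, 1 gene per line grouped by role (RNA sensors, transcription factors, *ISG15* conjugation, *PARP9* and *DTX3L*, Mx, GBP, IFIT, IFITM, OAS, *RSAD2* and *CMPK2*, *BST2*, *SAMD9* genes, IFI-named genes, others), red for higher and blue for lower on a scale from -2 to 2. Dots mark calls by limma with BY adjustment; the last column, Curcumin added to OXA in HTOXAR3, is blue in most lines with 19 dots, 17 of them on lower genes, and *STAT2* and *IRF7* stay red across it.

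After OXA, 12 of the 45 genes were higher in HTOXAR3 than in HT29 and 7 lower, where 7.14% and 6.98% of names were called (14.1% in all), with a median of 0.20 (0.25 on slide 2 and 0.21 on slide 3). With slide as a block, which sets apart the slide that held HT29 arrays alone (replicate 1 of HT29 with OXA among them), 6 were higher and 7 lower, and *HERC6*, *IFI44L*, *IFIT1*, *IFITM1*, *OAS3* and *USP18* lost their calls. With Benjamini-Hochberg adjustment 30 were called, 22 higher and 8 lower, where 20.0% of names were called. Leaving out single arrays gave 10 to 15, with 10 without replicate 1 of HT29, and 11 and 12 without replicates 1 and 3 of HTOXAR3. *IFITM1* (1.88 ± 0.35, adjusted p = 0.0108), *IFI44L* (1.31 ± 0.27, adjusted p = 0.022), *IFI6* (1.08 ± 0.11, adjusted p = 5.55e-05) and *RSAD2* (0.90 ± 0.14, adjusted p = 0.00285) were higher, and *IFITM2* was lower (-0.92 ± 0.14, adjusted p = 0.00159). The *IFITM1* call was lost without replicate 1 of HT29 or of HTOXAR3 (1.68 and 1.76), and that of *IFI44L* without replicate 1 or 2 of either line (1.18 to 1.29). Of the 19 calls, 9 were kept whichever array of the 2 groups was left out and 8 under every alternative (*GBP1*, *IFI44*, *IFI6*, *IFIT5*, *IFITM2*, *IRF7*, *SP110* and *STAT2*). *GBP1*, not well above background on any OXA array of HT29, was higher by at least 1.87-fold (adjusted p = 0.00779). Of the 19 genes higher in untreated HTOXAR3, 10 were also higher after OXA (52.6% of the 19 and 83.3% of the 12). The arrays were separate but the estimate of spread was shared, and this overlap was not counted over all gene names.

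With OXA plus Curcumin, 3 of the 45 were higher in HTOXAR3 and 9 lower, where 6.95% and 6.92% of names were called (13.9% in all), with a median of -0.09 (-0.06 and -0.26). Of the 12 calls, 9 were kept under every alternative. The 3 were *IFI6* (1.0 ± 0.11, adjusted p = 0.000126), *IFIT5* (0.85 ± 0.08, adjusted p = 2.04e-05) and *RSAD2* (0.82 ± 0.14, adjusted p = 0.00649), each of which was also higher in untreated HTOXAR3 (15.8% of the 19). With the mean of its probes *RSAD2* was not called here (0.61, adjusted p = 0.258) or after OXA (0.63, adjusted p = 0.217). *IFI6* was at 8.93, 9.14 and 9.31 in HT29 and 10.03, 10.22 and 10.12 in HTOXAR3 under this treatment, and in HTOXAR3 it was at 9.90, 10.00 and 9.95 without drug. Its level in HTOXAR3 was not called as changed by any treatment. Of those lower, *IFITM2* was at -1.02 ± 0.14 (adjusted p = 0.000684), *IFI35* at -1.0 ± 0.11 (adjusted p = 0.000145) and *SP110* at -0.68 ± 0.07 (adjusted p = 8.96e-05). *ISG15*, which was higher in untreated HTOXAR3, was lower there with OXA plus Curcumin (-0.46 ± 0.05, adjusted p = 0.000236). Of the 19 genes higher in untreated HTOXAR3, 10 were lower when Curcumin was added to OXA in that line (52.6% of the 19 and 58.8% of the 17). They were *IFIT1*, *IFIT2*, *IFIT3*, *IFITM1*, *OAS2*, *OAS3*, *OASL*, *USP18*, *ISG15* and *IFI44*. Of all 45 genes, 17 were lower when Curcumin was added. The 2 comparisons share no arrays but share the estimate of spread, and the overlap was not counted over all gene names. *IFIT1*, *IFIT3*, *OASL* and *IFI44* kept both calls under every alternative.

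Set beside the promoters, 13 of the 17 genes with a window that rose after OXA in HT29 held the motif, as did 9 of the 17 that were not called. After OXA in HTOXAR3 it was 7 of 10 that rose and 16 of 24 not called. Of the 12 with a window that were lower when Curcumin was added in HTOXAR3, 11 held it, *DDX58* being the exception, and so did 12 of 22 not called. *STAT2*, which was higher with Curcumin, had no match in its window. *BST2* held overlapping matches and fell after OXA in HT29. In untreated cells, 12 of the 14 genes that were higher in HTOXAR3 held it, and 10 of 19 not called. With OXA plus Curcumin against untreated cells the shares ran the other way, at 6 of 11 higher and 17 of 23 not called in HT29, and at 3 of 6 higher, 3 of 6 lower and 17 of 23 not called in HTOXAR3. With Curcumin added in HT29 it was held by 4 of 4 lower, 0 of 2 higher and 19 of 29 not called.

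Arrays of 1 group agreed to different degrees. Over the 37 members well above background on every array, the median SD within a group lay between 0.0586 and 0.0902 in 5 groups and was 0.174 in HT29 with OXA plus Curcumin, where the median over all 17400 names above background on every array was 0.0912. In that group replicate 3 was the highest for 27 of the 37 genes and replicate 1 the lowest for 20. In HTOXAR3 with OXA plus Curcumin, replicate 2 was the highest for 28 and replicate 3 the lowest for 21, at a median SD of 0.0873. In the HT29 group *IFIT2*, with the largest SD (0.515), was at 9.80, 10.56 and 10.79. By median SD the arrays of that group were the least alike for these genes. *XAF1*, a gene of cell death, had a single high array in HT29 with OXA, at 6.02, 3.97 and 4.19, and was not called in any comparison.

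Of the 45 genes, 8 were called in 0 of the 9 comparisons of groups, a count that was not made over all gene names. These 8 were *MX2*, *IRF2*, *IFI27*, *UBE2L6*, *PLSCR1*, *SAMD9L*, *XAF1* and *TRIM22*. Their lowest counts of arrays above background were those of *TRIM22* (0), *SAMD9L* and *XAF1* (4 each). For *MX2*, which restricts nuclear import of retroviruses, the probe used gave differences of 0.06 and 0.20 after OXA, while a second probe gave 0.65 and 0.68, not called. *PARP9*, which pairs with the ligase *DTX3L*, was at 0.02 after OXA in HT29 by the probe used and rose by 0.67 by its second probe.

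Genes around the pathway were taken from a second list of 43 ligands, receptors, kinases, sensors and regulators, of which 42 were on the array. Of the 42, 12 rose and 2 fell after OXA in HT29 (8.33% and 7.62% of all names), and 13 rose and 1 fell in HTOXAR3 (5.31% and 4.94%). In the untreated lines 3 were higher and 5 lower (6.26% and 5.28%), which is 7.14% and 11.9% of the list, the share higher being near that of all names. *IFNL1*, a type III interferon, was at 4.70, 4.42 and 4.92 in untreated HT29 and 5.69, 5.73 and 6.0 after OXA (1.13 ± 0.24, adjusted p = 0.0289). In HTOXAR3 it was at 5.75, 4.95 and 5.18 and 6.61, 6.45 and 6.44 (1.21 ± 0.24, adjusted p = 0.0264), and at 5.27, 5.71 and 4.94 with OXA plus Curcumin (-1.19 ± 0.24 against OXA, adjusted p = 0.0333). In HT29 with OXA plus Curcumin it was at 5.08, 5.67 and 5.81, and not called against OXA. It was above background on 15 arrays, and on 1 of the 3 of untreated HT29. Its receptor chain *IFNLR1* rose by 1.71 ± 0.07 and 1.02 ± 0.07 after OXA (adjusted p = 1.15e-08 and 5.4e-06), and the response was smaller in HTOXAR3 (-0.68 ± 0.10, adjusted p = 0.0211). *IFNB1* was above background on 5 arrays, all of HTOXAR3, and *IFNA2*, *IFNG*, *IFNK* and *IFNW1* on 0. *IFNE* and *IFNL2* were above it on 18 and were not called after OXA (0.73 and 0.27 in HT29, -0.04 and 0.51 in HTOXAR3).

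Of the type I receptor chains, *IFNAR2* rose by 0.37 ± 0.06 after OXA in HT29 and was at 0.11 and not called in HTOXAR3, and *IFNAR1* was not called in either line (0.29 and 0.11). The chains of the *IFNG* receptor were called higher after OXA in HTOXAR3 (*IFNGR1* 0.44, *IFNGR2* 0.40) and stood at 0.29 and 0.25 in HT29, not called. *IL10RB*, the other chain of the type III receptor, was at 8.96, 8.92 and 8.96 in untreated HT29 and 9.52, 9.55 and 9.54 after OXA (0.60 ± 0.07, adjusted p = 0.000225), and its difference in HTOXAR3 was 0.13, not called. Of the kinases, *JAK1* was called in HT29 (0.41) and *TYK2* in HTOXAR3 (0.34), while *JAK1* was at 0.28 in HTOXAR3 and *TYK2* at 0.32 in HT29, not called. None of *IL10RB*, *JAK1* and *TYK2* had a called difference between the lines in the response to OXA. *SOCS3*, an inhibitor of cytokine signalling, was not well above background in untreated HT29 and was at least 3.57-fold higher in untreated HTOXAR3 (adjusted p = 4.48e-08) and at least 4.57-fold higher in HT29 after OXA (adjusted p = 1.05e-08). *TLR3*, a sensor of double-stranded RNA in endosomes, was lower in untreated HTOXAR3 (-1.41 ± 0.14, adjusted p = 5.94e-05), where it was well above background on 1 of the 3 arrays. *DHX58*, a regulator of the RNA sensors, rose by 1.12 ± 0.12 and 0.93 ± 0.12 after OXA and was lower with Curcumin in HTOXAR3 (-1.20 ± 0.12, adjusted p = 0.000137). *ISG20*, an exonuclease, rose by 1.42 ± 0.08 and 1.19 ± 0.08 after OXA and was not called with Curcumin in either line (0.37 and -0.09).

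With OXA plus Curcumin against untreated cells, 14 of the 42 rose and 0 fell in HT29 (9.56% and 9.02% of names), and 13 rose and 1 fell in HTOXAR3 (8.82% and 8.64%). *TICAM1*, the adaptor of *TLR3*, was at 12.40, 12.35 and 12.56 untreated, 13.42, 13.35 and 13.24 with OXA and 13.54, 13.59 and 13.63 with OXA plus Curcumin in HT29. In HTOXAR3 it was at 11.99, 12.07 and 12.05, 12.81, 12.76 and 12.79 and 13.24, 13.26 and 13.40. It stood apart from the untreated arrays under each treatment, with rises under OXA plus Curcumin of 1.15 ± 0.07 and 1.27 ± 0.07 (adjusted p = 2.65e-07 and 1.56e-07). *ISG20* rose by 1.79 ± 0.08 in HT29 and 1.10 ± 0.08 in HTOXAR3, with a difference between the responses of -0.69 ± 0.11 (adjusted p = 0.041). *SOCS3* rose by at least 4.81-fold in HT29 and by 1.99 ± 0.10 in HTOXAR3 (adjusted p = 8.82e-09 and 6.81e-08). *SOCS1*, another inhibitor of cytokine signalling, rose by 0.75 ± 0.16 and 0.88 ± 0.16 (adjusted p = 0.03 and 0.00902).

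When Curcumin was added to OXA, 2 of the 42 were higher and 1 lower in HT29 (3.14% and 2.39% of names), and 4 were higher and 4 lower in HTOXAR3 (4.43% and 4.41%). *MAVS*, the adaptor of the RNA sensors, was higher in HTOXAR3 (0.63 ± 0.07, adjusted p = 0.000211) and at 0.30 and not called in HT29. *IFNLR1* was lower in each line (-0.60 ± 0.07 and -0.50 ± 0.07), and *TREX1*, a DNA exonuclease, was higher in HT29 (0.32 ± 0.06, adjusted p = 0.0319). Between the lines after OXA, *TLR3* was lower in HTOXAR3 (-1.69), as was *IRF5*, a transcription factor (-0.64), while *SOCS3* (1.26) and *JAK2* (0.69) were higher. With OXA plus Curcumin *SOCS3* was again higher (1.56), and *DHX58* (-0.85) and *ISG20* (-0.65) were lower; *TLR3* was not well above background on any of these HTOXAR3 arrays.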

How the data were processed

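Total RNA of HT29 and HTOXAR3 cells was labelled with Cy3 and hybridised to 18 one-colour arrays, 3 in each of 6 groups. The authors deposited the scanner output of each array, with a linear mean intensity and local background intensity (median) per spot that had not been normalized between arrays, together with the scanner's flag for spots well above background. A log2 table of the authors was not used because its lines carry no gene name. Of 62976 spots, 58717 measure transcripts, and the number of arrays limits the precision.

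Intensities were corrected with normexp (offset 0, since the study's methods give none) and quantile normalized. Control spots were left out, outlier flags were set to missing, spots of a probe were averaged (50599 probes), and the brightest probe of each gene name was kept (36204). A model with 1 term per group was fitted over the 18 arrays in R 4.3.3 (limma 3.58.1, lmFit and eBayes), and calls needed a fold change above 1.2 at a BY adjusted p below 0.05. Where a group was not above background on any array, the difference was bounded with the lowest signal above background. The scripts were tested on simulated data. Promoters were searched in Python 3.11.15 with pandas 2.3.3, and figures drawn with matplotlib 3.10.9. *DDX58* was matched to RIGI.

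Groups came from the sample labels, and the labels call the arrays of a group biological replicates. The 45 genes, the pathway list and the tests were chosen with earlier results of these data known. Genes named were up to 12 called members with the largest basal difference and up to 6 in each other comparison, always the transcription factors, RNA sensors and IFITM genes, and from the pathway list the receptor chains for type I interferon and *IFNG*, *JAK1*, *TYK2*, detected ligands and up to 4 called genes in a comparison with the largest differences (2 genes that this rule names are not reported here). Other members are named to complete counts, and *MX2*, *PARP9*, *XAF1*, *HERC6*, *UBE2L6*, *OAS1* and *IL10RB* were named after their values were seen.

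Alternatives were a normexp offset of 50, the processed signal over its 75th percentile, the mean of all probes, dim probes left out, Benjamini-Hochberg adjustment, slide as a block, the replicate number as a block, and each array left out. An array was left out only for the comparisons whose groups held it, although the other arrays also enter the estimate of spread. Each probe on its own and the effect of adding Curcumin compared between lines were added after seeing the data. Replicate numbers were checked as pairs by correlating deviations from group means over all names. Every pair correlated above 0.1 for OXA in HT29 (0.118 to 0.241) and for Curcumin added in HTOXAR3 (0.108 to 0.194), both comparisons in which arrays of a number lay on 1 slide. The other comparisons did not meet this. No 2 arrays correlated above 0.994.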

Additional observations from a re-analysis of the deposited data

Results flagged for a closer look

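Of the 45 interferon-stimulated genes, 3 differed between the lines in their response to OXA plus Curcumin by a direct test of that difference (limma, BY adjusted), all lower in HTOXAR3, where 0.856% of all gene names were called and 0.536% lower. The count was 7 with a normexp offset of 50 or without dim probes, where 655 and 603 names were called, against 310 in the main fit. With Benjamini-Hochberg adjustment it was 11, where 3.44% of names were called. The response of *GBP2* in HTOXAR3 was lower than that in HT29 by a log2 difference of -1.35 (adjusted p = 0.00127), that of *ISG15* by -0.76 (adjusted p = 0.0015) and that of *MX1* by -0.78 (adjusted p = 0.0483). The call of *MX1* was lost under 13 of 19 alternatives, with adjusted p up to 0.156, and those of *GBP2* and *ISG15* under 0 of 19. Single arrays were not examined as outliers within a group of 3.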

How the results depend on the processing

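Of 1992 values that the 152 calls of members took under the alternatives, 0 reversed and 239 lost their call, 190 of them when 1 array was left out, 16 with the mean of all probes and 15 with slide as a block. Each probe taken on its own, the untreated lines differed in *PARP9* by -0.34 and 0.32. The number of members called moved by over 1.5 times in these cases. With a normexp offset of 50 it was 24 for OXA in HTOXAR3, 7 for the difference between the lines in the response to OXA plus Curcumin, and 1 each for that in the response to OXA and in the effect of adding Curcumin. All names called with that offset in these comparisons were 4442, 655, 636 and 181, against 3709, 310, 364 and 49 in the main fit. With dim probes left out the member counts were again 24, 7, 1 and 1, with 4632, 603, 645 and 139 names called. With Benjamini-Hochberg adjustment the member counts were 27, 11, 2 and 2, and 14 for Curcumin added in HT29 and 30 for the lines after OXA. The shares of all names called were then 16.6%, 3.44%, 3.0%, 0.892%, 10.2% and 20.0%. Leaving out 1 array gave 16 to 22 for the untreated lines, 19 to 22 for OXA in HT29, 12 to 14 for OXA in HTOXAR3, 13 to 21 and 9 to 12 for OXA plus Curcumin in HT29 and HTOXAR3, 3 to 9 and 13 to 17 for Curcumin added, 10 to 15 and 12 to 14 for the lines after OXA and after OXA plus Curcumin, 2 to 7 for the difference in response to OXA plus Curcumin, and 0 for the other 2 differences. The cause of these moves was not tested, beyond the fewer arrays or names and the milder adjustment. Relative to the main setting, processed signals shifted the median of all names by over 0.1 in 6 of 12 comparisons, down by up to -0.20 (OXA in HTOXAR3) and up by 0.12 (Curcumin added in HTOXAR3), and the members' counts stayed within 1.5 times.

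With the replicate block, which takes same-numbered arrays as pairs, the counts were 25 for the untreated lines, 22 and 18 for OXA in HT29 and HTOXAR3, 8 and 21 for Curcumin added, and 2 for the difference in response to OXA plus Curcumin, where *MX1* lost its call. It moved no count by over 1.5 times. The 2 arrays of slide 1 were both HT29. Within slides 2 and 3, each called member kept its sign on both. The same arrays entered the calls, so that this is not an independent check.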
